A study of Mus musculus with 6 samples.

Results

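A set of 10 genes that mark large blood vessels and lymphatic vessels was followed in the lungs of mice that carried a human breast tumour with or without the DPP3 gene. Of the 56980 genes in the deposited expression table, the 10 were taken by symbol: Vwf, Gja5, Bmx, Efnb2, Slc6a2 and Ackr3 for arteries and veins, and Prox1, Lyve1, Mmrn1 and Reln for lymphatic vessels. All 10 were found, and 9 of them, all but Prox1, reached the mean of 1 TPM (a transcript share corrected for gene length) that the test required. The hosts in both groups were NSG mice, a strain without mature lymphocytes, and lung was taken 5 weeks after human MDA-MB-231 breast cancer cells were injected at a mammary fat pad. In the DPP3_KO group (n = 3) the tumour cells lacked DPP3, the gene of dipeptidyl peptidase 3, and in the Ctrl group (n = 3) they were MDA-MB-231 cells with no deletion named in the labels. The deletion was in the tumour and not in the mouse, so no mouse gene checks the labels, and whether the knockout line was a clone is not given in the sources used here. The age and sex of the mice are not given either, and no tumour-free lung was analysed here.

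Arteries, veins and lymphatics are lined by endothelial cells that share a common programme and add genes of their own. Arterial endothelium is set apart by Notch signalling and carries the ligand ephrin-B2, while venous endothelium carries its receptor EphB4. Lymphatic endothelium arises largely from veins under the transcription factor Prox1, and collects fluid and immune cells from the tissue. In the lung, arteries accompany the airways and veins run apart from them, and both are joined by the capillary network that makes up most of the lung's endothelium.

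Promoters are shown for Efnb2, Ackr3 and Mmrn1, which are 3 of the 4 genes that passed the test below. Sequences for 7 of the 10 genes, not Vwf, Slc6a2 or Lyve1, came from RefSeq (GRCm38.p6, an earlier build than the GRCm39 named in the submitters' processing notes), each running from 250 bases before to 50 after the transcription start. Capitals mark matches on either strand to TATAAA (the TATA box), CCAAT (the CCAAT box), ACAAT (a core of SOX factor sites) and AGGAAG (a core of ETS factor sites). No 2 matches overlapped in these sequences.
Efnb2, chr8:8661193-8661492, minus strand: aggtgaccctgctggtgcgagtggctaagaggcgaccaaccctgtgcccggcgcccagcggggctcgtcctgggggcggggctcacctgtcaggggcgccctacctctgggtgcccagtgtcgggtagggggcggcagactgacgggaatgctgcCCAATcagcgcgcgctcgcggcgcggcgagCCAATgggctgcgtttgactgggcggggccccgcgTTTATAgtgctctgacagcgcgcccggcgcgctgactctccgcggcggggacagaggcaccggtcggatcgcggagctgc
Ackr3, chr1:90203730-90204029, plus strand: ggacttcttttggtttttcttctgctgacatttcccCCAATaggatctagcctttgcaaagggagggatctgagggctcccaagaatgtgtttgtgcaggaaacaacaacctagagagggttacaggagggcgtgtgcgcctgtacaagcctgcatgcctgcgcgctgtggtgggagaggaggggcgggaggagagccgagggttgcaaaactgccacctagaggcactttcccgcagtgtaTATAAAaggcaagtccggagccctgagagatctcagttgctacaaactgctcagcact
Mmrn1, chr6:60944067-60944366, plus strand: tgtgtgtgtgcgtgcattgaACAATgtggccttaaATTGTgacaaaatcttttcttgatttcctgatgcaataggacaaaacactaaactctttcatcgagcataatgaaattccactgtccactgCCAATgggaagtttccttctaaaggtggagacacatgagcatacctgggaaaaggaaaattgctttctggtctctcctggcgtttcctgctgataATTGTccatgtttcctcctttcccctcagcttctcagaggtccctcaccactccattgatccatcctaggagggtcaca
The Efnb2 promoter was 72.3% G or C and held 2 CCAAT matches and 1 TATAAA match. The Ackr3 promoter was 54.0% G or C, with 1 match to each of these. The Mmrn1 promoter was 44.3% G or C, with 3 ACAAT matches and 1 CCAAT match. The median over all 32851 promoters of the table was 52.7%. Among them 37.4% of promoters held CCAAT, 31.0% ACAAT, 35.4% AGGAAG and 13.6% TATAAA, so each motif is common and a match is a description only. The 3 promoters thus shared the CCAAT letters but differed in base composition.

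All TPM columns have the same sum, so the sequencing depth behind the values is unknown. The club cell secretoglobin gene Scgb1a1 alone took 21.7% to 28.8% of all TPM in DPP3_KO libraries and 7.16% to 10.1% in Ctrl libraries. The median log2 change over the 15650 tested genes was -0.60 as deposited and -0.02 on the median-of-ratios scale, which sets each library by its typical gene. Both values are given below for the 10 genes, and a further scaling sets the libraries to the same geometric mean of 12 pan-endothelial genes. That mean was 63.0, 40.9 and 53.2 TPM in DPP3_KO replicates 1 to 3, against 163, 167 and 121 TPM in Ctrl replicates 1 to 3. It was lower in every DPP3_KO library. With this scaling the median log2 change over all tested genes was 0.73. The 12 genes did not move together. On their own scale 1, Cdh5, was called lower (-1.03) and 2, Egfl7 and Cldn5, higher (1.11 and 1.09, limma adjusted p under 0.05). In whole lung, fewer cells of a type and less RNA per cell cannot be told apart. Whether each library came from its own mouse is not stated, so each p-value reflects the spread among these libraries, which may be technical.

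Of the 9 tested genes, Lyve1, Efnb2, Mmrn1 and Ackr3 fell in DPP3_KO lungs as deposited, and none rose (limma on log2(TPM + 1), Benjamini-Hochberg adjusted p under 0.05). Over all tested genes 34.0% were called lower and 1.38% higher in the same fit. With libraries scaled by median of ratios, 1 of the 9, Efnb2, was called lower, against 0.888% of all genes lower and 1.94% higher. Relative to the pan-endothelial genes 0 of the 9 were called lower and 0 higher (limma, with 0.543% of all genes lower and 27.0% higher), and at an unadjusted p under 0.05 only Vwf differed, being higher. The DPP3_KO range lay wholly below the Ctrl range for 6 of the 9 as deposited, which was also the case for 51.1% of all tested genes, and lay wholly above it for 0, against 2.73%. When scaled by median of ratios, this held for 2 of the 9, Efnb2 and Lyve1, against 15.2% of all tested genes lower and 14.9% higher. All 4 deposited calls were lost without Ctrl replicate 1 (adjusted p 0.0583 to 0.0737) and without Ctrl replicate 2 (0.0752 to 0.0935). Without these libraries the genes called lower in the whole table numbered 18 and 71, against 5321 with all libraries.

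**Figure D1:**
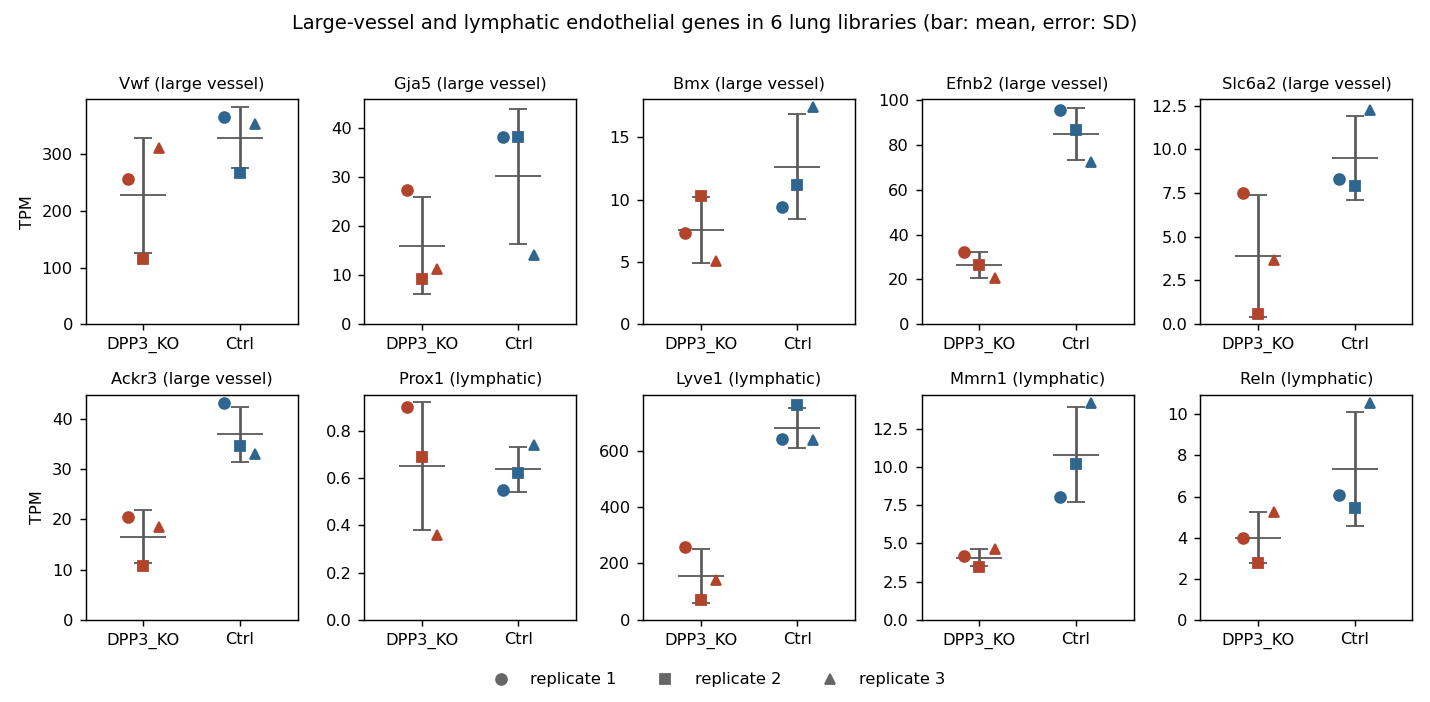
TPM of the 10 genes in each of the 6 lung libraries, DPP3_KO left and Ctrl right in every panel, each axis from 0. Points are libraries, the bar is the mean and the error bar the SD (n = 3). Lyve1, Efnb2, Ackr3, Mmrn1, Slc6a2 and Reln had no DPP3_KO library as high as the lowest Ctrl library.

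Efnb2 (ENSMUSG00000001300) encodes ephrin-B2, the membrane ligand by which arterial endothelium signals to EphB4 on veins. It stood at 32.2, 26.4 and 20.5 TPM in DPP3_KO replicates 1 to 3, against 95.6, 86.8 and 72.5 TPM in Ctrl replicates 1 to 3. All 3 DPP3_KO libraries lay far below the lowest Ctrl library. The means were 26.4 ± 5.82 TPM in DPP3_KO and 84.9 ± 11.7 TPM in Ctrl (SD, n = 3 each), a log2 change of -1.66 ± 0.22 SE (limma adjusted p = 0.0145). With libraries scaled by median of ratios, the scaled levels were 39.8, 29.6 and 29.3 in DPP3_KO against 75.9, 64.3 and 61.0 in Ctrl, still without overlap. That change was -1.02 ± 0.18 SE on the log2 scale (limma adjusted p = 0.0453), and the call was kept without DPP3_KO replicate 1 (adjusted p = 0.0432) but lost without any other single library (0.0904 to 0.168). Set against the pan-endothelial genes the log2 change was -0.17 (95% interval -0.81 to 0.47), so the change of Efnb2 was not shown to differ from that of the endothelial average. Its receptor gene Ephb4 fell as deposited (log2 change -1.26, limma adjusted p = 0.0255), and stood at -0.62 on the median-of-ratios scale (adjusted p = 0.362).

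Ackr3 (ENSMUSG00000044337) encodes a scavenging receptor that takes up the chemokine CXCL12 and the peptide adrenomedullin without G protein signalling, and is also made outside endothelium. It had 20.5, 10.7 and 18.6 TPM in DPP3_KO lungs, against 43.2, 34.6 and 33.1 TPM in Ctrl lungs. DPP3_KO replicate 2 was the lowest of all, and the groups did not overlap. The means were 16.6 ± 5.21 TPM in DPP3_KO and 36.9 ± 5.43 TPM in Ctrl, a log2 change of -1.15 ± 0.27 SE (limma adjusted p = 0.0218). On the median-of-ratios scale it was -0.51 (95% interval -1.26 to 0.23), with DPP3_KO replicate 3 (26.5) above Ctrl replicate 2 (25.7), and the groups overlapped. Without DPP3_KO replicate 3 the deposited call was lost (adjusted p = 0.0530). The ligand gene Cxcl12 fell as deposited (log2 change -1.28, adjusted p = 0.0159), as did Cxcr4, the signalling receptor for the same chemokine (adjusted p = 0.0156), which had 24.0, 30.7 and 26.1 TPM in DPP3_KO lungs and 58.5, 48.6 and 57.2 TPM in Ctrl lungs. With libraries scaled by median of ratios, Cxcl12 and Cxcr4 stood at -0.63 and -0.35 and neither passed. Adm, the adrenomedullin gene, did not pass as deposited, at 13.2, 24.7 and 11.6 TPM in DPP3_KO lungs and 6.10, 11.2 and 12.03 TPM in Ctrl lungs. On the median-of-ratios scale Adm was higher by 1.28, without overlap, and did not pass (limma adjusted p = 0.0794). Relative to the pan-endothelial genes it was called higher, at 2.06 (limma adjusted p = 0.0187), as were 27.0% of all tested genes.

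Vwf (ENSMUSG00000001930) encodes von Willebrand factor, the clotting multimer that endothelium of larger vessels stores in Weibel-Palade bodies, and it is made by megakaryocytes as well. Its levels were 257, 115 and 312 TPM in DPP3_KO lungs, against 366, 267 and 354 TPM in Ctrl lungs. The groups overlapped, and DPP3_KO replicate 2 was the only library far below the rest. The log2 change was -0.63 ± 0.37 SE as deposited (limma adjusted p = 0.204) and 0.03 on the median-of-ratios scale (95% interval -1.06 to 1.12). Relative to the pan-endothelial genes of its own library Vwf was higher by 0.89 on the log2 scale (95% interval 0.07 to 1.71), a difference that did not pass over all genes (limma adjusted p = 0.0898). The median over all tested genes on this scale was 0.73, with quartiles of 0.40 and 1.08, so Vwf lay in the middle range of all genes. The 2 sets of Vwf log2 ratios overlapped by a narrow margin: 2.03, 1.49 and 2.55 in DPP3_KO and 1.17, 0.67 and 1.55 in Ctrl. Selp, whose product P-selectin lies in the same storage bodies, had 7.15, 31.6 and 11.4 TPM in DPP3_KO lungs and 7.83, 5.02 and 13.4 TPM in Ctrl lungs. It did not pass as deposited or on the median-of-ratios scale. Relative to the pan-endothelial genes Selp was called higher, at 2.06 (limma adjusted p = 0.0468), as were 27.0% of all tested genes.

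Gja5 (ENSMUSG00000057123), the gene of the arterial gap junction protein connexin 40, is expressed in atrial heart muscle too. It had 27.5, 9.32 and 11.3 TPM in DPP3_KO lungs, against 38.2, 38.1 and 14.2 TPM in Ctrl lungs. Ctrl replicate 3 sat with the low DPP3_KO libraries, so the groups overlapped. The log2 change was -0.90 ± 0.50 SE as deposited (limma adjusted p = 0.184) and -0.27 on the median-of-ratios scale (95% interval -1.44 to 0.91). The other arterial connexin gene, Gja4, fell as deposited (log2 change -1.54, adjusted p = 0.0348) and stood at -0.92 on the median-of-ratios scale (adjusted p = 0.295). Heart muscle genes moved the other way: 7 of 12 rose as deposited, against 1.38% of all tested genes. None of the 12 was at 0 in every library. Their summed level was 2137 to 2398 TPM in DPP3_KO and 584 to 1163 TPM in Ctrl. What part heart muscle RNA had in the Gja5 level was not tested.

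Bmx (ENSMUSG00000031377) encodes a Tec-family tyrosine kinase of arterial endothelium and of myeloid cells. Its levels were 7.33, 10.3 and 5.05 TPM in DPP3_KO lungs, against 9.37, 11.2 and 17.4 TPM in Ctrl lungs. The groups overlapped, and the highest library of each group was DPP3_KO replicate 2 and Ctrl replicate 3. The log2 change was -0.68 ± 0.31 SE (limma adjusted p = 0.119), or -0.08 on the median-of-ratios scale (95% interval -0.76 to 0.59). The summed level of 7 neutrophil genes, a list chosen after values had been seen, was 1649, 34540 and 14640 TPM in DPP3_KO replicates 1 to 3 and 4029, 7153 and 51490 TPM in Ctrl replicates 1 to 3, highest in the same libraries. Among DPP3_KO libraries the sum was lowest in replicate 1, while Bmx was lowest in replicate 3. None of the 7 was at 0 in every library, and 0 passed (limma, 0 also at an unadjusted p under 0.05). The part of these genes' cells in the Bmx level was not tested.

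Slc6a2 (ENSMUSG00000055368) encodes the noradrenaline transporter, which clears noradrenaline from the blood and marks larger pulmonary veins in mice. It had 7.48, 0.560 and 3.65 TPM in DPP3_KO lungs, against 8.30, 7.90 and 12.3 TPM in Ctrl lungs. The groups did not overlap, yet the DPP3_KO libraries differed from each other by more than DPP3_KO replicate 1 differed from the lowest Ctrl library. The log2 change was -1.39 ± 0.57 SE (limma adjusted p = 0.0926), it passed without DPP3_KO replicate 1 (-1.94, adjusted p = 0.0403), and it was -0.72 without DPP3_KO replicate 2. When scaled by median of ratios, it was -0.84 (95% interval -2.37 to 0.70). The noradrenaline synthesis genes of sympathetic neurons, which also carry this transporter, were near the bottom of the table: Th was listed at 0 in every library and Dbh at no more than 0.120 TPM. What part neurons had in the Slc6a2 level was not tested.

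Lyve1 (ENSMUSG00000030787) encodes a hyaluronan receptor used to stain lymphatic vessels. In mice it is also found on other cells, among them a subset of tissue macrophages. It showed the largest change of the 10 genes as deposited. The levels were 260, 69.2 and 142 TPM in DPP3_KO lungs, against 642, 762 and 638 TPM in Ctrl lungs. Every DPP3_KO library lay below every Ctrl library, and the DPP3_KO libraries spread widely. The means were 157 ± 96.0 TPM in DPP3_KO and 681 ± 70.4 TPM in Ctrl (SD, n = 3 each), 4.34-fold apart, and the log2 change was -2.30 ± 0.44 SE (limma adjusted p = 0.0168). With libraries scaled by median of ratios, the levels still did not overlap, at 321, 77.5 and 202 in DPP3_KO and 510, 565 and 538 in Ctrl, but the change of -1.64 (95% interval -2.79 to -0.49) did not pass over all genes (adjusted p = 0.116). Relative to the pan-endothelial genes it was -0.78 (95% interval -1.59 to 0.03). Without DPP3_KO replicate 3 the deposited call was lost by a small margin (adjusted p = 0.0505).

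The lymphatic members Mmrn1, Reln and Prox1 stood far below Lyve1 in every library. Mmrn1 (ENSMUSG00000054641), the gene of multimerin 1, an adhesive protein of lymphatic endothelium and platelets, had 4.15, 3.46 and 4.61 TPM in DPP3_KO lungs, against 8.02, 10.2 and 14.2 TPM in Ctrl lungs. The groups did not overlap, and the DPP3_KO libraries lay close together. The log2 change was -1.19 ± 0.24 SE as deposited (limma adjusted p = 0.0183) and -0.62 on the median-of-ratios scale (95% interval -1.26 to 0.02), where the groups overlapped. Reln (ENSMUSG00000042453), the gene of the secreted glycoprotein reelin, had 4.00, 2.78 and 5.24 TPM in DPP3_KO lungs, against 6.08, 5.43 and 10.6 TPM in Ctrl lungs. DPP3_KO replicate 3 came close to Ctrl replicate 2, and the change of -0.72 ± 0.30 SE on the log2 scale did not pass (limma adjusted p = 0.0977). On the median-of-ratios scale Reln was at -0.16 (95% interval -1.003 to 0.68). Its receptor genes Vldlr and Lrp8 did not pass, at -0.75 and -0.58 as deposited, and the adaptor gene Dab1 lay below the test's minimum, at no more than 0.240 TPM in any library.

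Prox1 (ENSMUSG00000010175), the transcription factor that sets lymphatic identity, was listed at 0.900, 0.690 and 0.360 TPM in DPP3_KO lungs, against 0.550, 0.620 and 0.740 TPM in Ctrl lungs. The groups overlapped at a level under 1 TPM throughout, and the gene was not tested in the filtered fit. Without a filter its log2 change of TPM + 1 was -0.00024 (95% interval -0.40 to 0.40). At this level the added 1 TPM shrinks any change, so the interval does not show that Prox1 was unchanged. Prox1 is also made in heart muscle, whose summed genes were higher in every DPP3_KO library as given above, and that part was not tested. Of the 2 genes most often used to name lymphatic vessels, Lyve1 thus averaged 681 TPM in Ctrl lungs and Prox1 0.637 TPM. Lyve1 also exceeded the pan-endothelial gene Pecam1 in Ctrl lungs, where Pecam1 had 439, 491 and 542 TPM, while in DPP3_KO lungs Pecam1 had 174, 112 and 157 TPM. These levels do not show which cells made the Lyve1 RNA.

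**Figure D2:**
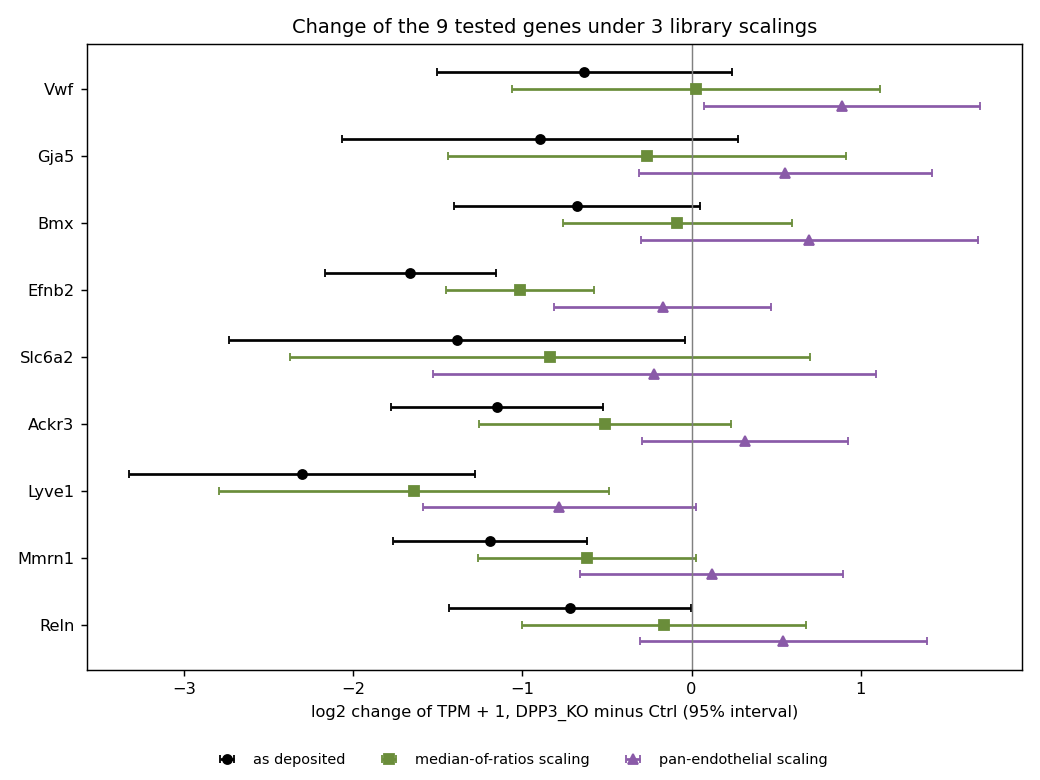
Log2 change of TPM + 1, DPP3_KO minus Ctrl, with its 95% interval from limma for the 9 tested genes, under 3 ways of scaling the libraries. All 9 points lie below 0 as deposited. With libraries scaled by median of ratios, Vwf lies at 0.03 and the others below 0, and relative to the pan-endothelial genes only Efnb2, Slc6a2 and Lyve1 lie below 0.

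The order of the levels was much the same in both groups. In DPP3_KO lungs the order by mean TPM was Vwf, Lyve1, Efnb2, Ackr3, Gja5, Bmx, Mmrn1, Reln, Slc6a2 and Prox1. In Ctrl lungs it was Lyve1, Vwf, Efnb2, Ackr3, Gja5, Bmx, Mmrn1, Slc6a2, Reln and Prox1. Among neighbours in the DPP3_KO order, the ranges of Vwf and Lyve1, of Ackr3 and Gja5, of Gja5 and Bmx, and of all neighbours from Mmrn1 down to Prox1 overlapped. In the Ctrl order, all neighbours from Ackr3 down to Reln overlapped, while Lyve1, Vwf and Efnb2 were each above the next gene in every library. The pair at the top changed places: the ratio of Lyve1 to Vwf within a library, which no scaling alters, was 1.01, 0.602 and 0.455 in DPP3_KO and 1.75, 2.86 and 1.81 in Ctrl. This ratio was singled out after the levels had been seen.

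**Figure D3:**
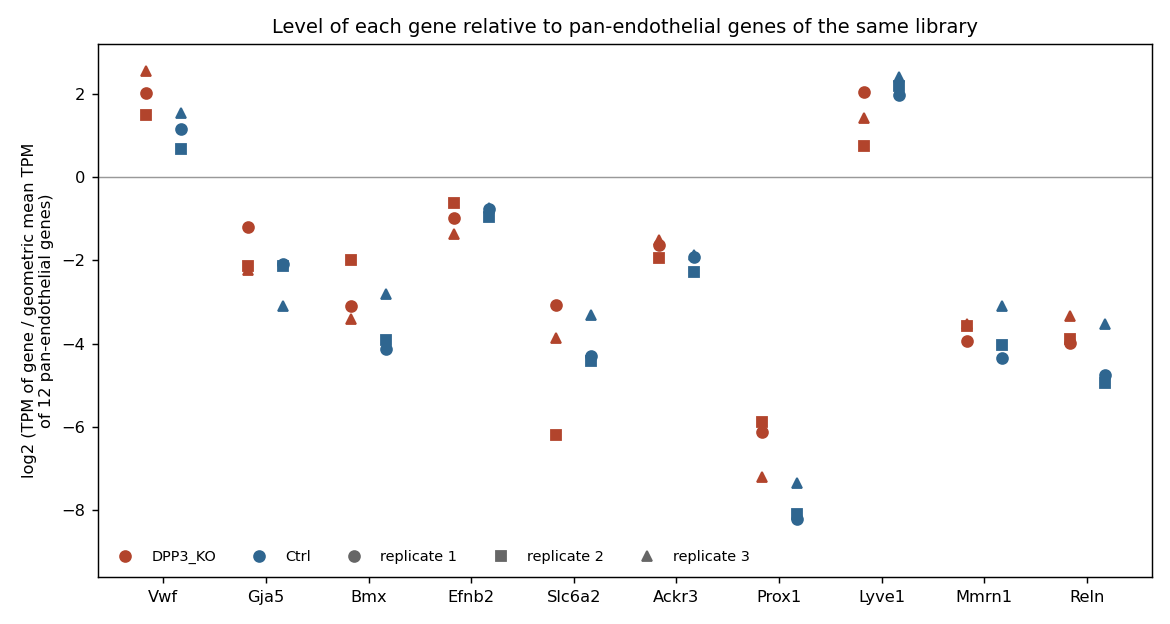
Log2 ratio of each gene's TPM to the geometric mean TPM of 12 pan-endothelial genes in the same library, DPP3_KO left and Ctrl right for each gene. Values near 0 lie at the endothelial average. Efnb2 sits below it in both groups, between -1.37 and -0.63 in DPP3_KO and between -0.95 and -0.73 in Ctrl. Prox1 is the lowest gene in every library except DPP3_KO replicate 2, where Slc6a2 is lower.

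Against the endothelial average, the genes parted. The log2 ratio of Efnb2 to the 12 pan-endothelial genes averaged -0.99 ± 0.37 in DPP3_KO and -0.82 ± 0.11 in Ctrl (SD, n = 3 each). The ratio of Lyve1 averaged 1.41 ± 0.64 in DPP3_KO and 2.19 ± 0.21 in Ctrl, and that of Vwf 2.02 ± 0.53 in DPP3_KO and 1.13 ± 0.44 in Ctrl. Lyve1 was thus lower and Vwf higher relative to this average, but both sets of libraries overlapped and neither gene passed in the fit. Prox1 was the only one of the 10 whose ratios did not overlap, at -6.13, -5.89 and -7.21 in DPP3_KO and -8.21, -8.08 and -7.35 in Ctrl. On this scale 50.0% of all tested genes lay wholly higher and 1.39% wholly lower in DPP3_KO, and without a filter the change of Prox1 did not pass (limma adjusted p = 0.148).

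Other arterial, venous and lymphatic genes included some that fell as deposited and none that rose, and the difference between these groups was not tested. Over all tested genes 34.0% were called lower as deposited and 0.888% on the median-of-ratios scale. Of 17 other arterial endothelial genes 12 fell and 0 rose, with a median log2 change of -1.13, against -0.60 over all tested genes. When scaled by median of ratios, the median was -0.49 and 1 fell, Notch1. Notch1 and Notch4, receptors of the pathway that sets arterial fate, fell by 1.51 and 1.61 on the log2 scale as deposited (limma adjusted p = 0.0145 for both). With libraries scaled by median of ratios, Notch1 was at -0.88 (adjusted p = 0.0395) and Notch4 at -0.96, which did not pass (adjusted p = 0.0515). Nrp1, a co-receptor for VEGF, had a log2 change of -2.19 (adjusted p = 0.0155) and did not pass on the median-of-ratios scale (-1.55, adjusted p = 0.0679). Of 11 other venous genes tested, 1, Ephb4, fell, with a median of -0.43 as deposited and 0.23 on the median-of-ratios scale. The other venous genes with the smallest p, Nrp2 and the sialomucin gene Emcn, did not pass, at -1.15 and -0.89. Nr2f2, the transcription factor of venous identity, had 30.4, 26.9 and 24.0 TPM in DPP3_KO lungs and 35.4, 49.4 and 23.1 TPM in Ctrl lungs. It did not pass as deposited or on the median-of-ratios scale.

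Of 14 other lymphatic genes tested, 8 fell and 0 rose as deposited, against 34.0% of all tested genes lower. Their median was -1.12 as deposited and -0.48 on the median-of-ratios scale. On the latter 1, Pdpn, fell, against 0.888% of all tested genes. Flt4, the receptor for lymphatic growth factor VEGF-C, had 4.38, 4.40 and 6.04 TPM in DPP3_KO lungs, against 20.9, 19.6 and 12.5 TPM in Ctrl lungs (log2 change -1.63, limma adjusted p = 0.0145). No DPP3_KO library reached the lowest Ctrl library, and the change on the median-of-ratios scale was -1.04 (adjusted p = 0.0817). Ackr2, a chemokine scavenger of lymphatic endothelium, fell by 1.42 on the log2 scale as deposited (adjusted p = 0.0145) and did not pass on the median-of-ratios scale (-0.79, adjusted p = 0.0939). Pdpn, which fell by 1.92 (adjusted p = 0.0144), is shared with alveolar type 1 cells, so it does not mark lymphatics alone in lung. Ccl21a, a chemokine of lymphatic endothelium, did not pass, at 96.7, 31.4 and 155 TPM in DPP3_KO and 202, 214 and 111 TPM in Ctrl; its close copies can share reads, so the value is uncertain. Foxc2, a transcription factor gene of lymphatic valves, was below the test's minimum.

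Ligands, receptors and enzymes that act with the 10 gene products gave 8 lower and 0 higher of 22 tested genes, a share near that over all genes, and 0 on the median-of-ratios scale, where 7 had an unadjusted p under 0.05 (limma). Hyal2, a hyaluronidase gene, had 73.0, 25.8 and 62.0 TPM in DPP3_KO lungs, against 195, 238 and 260 TPM in Ctrl lungs (log2 change -2.20, limma adjusted p = 0.0155). The groups were far apart, and the change was -1.55 on the median-of-ratios scale (adjusted p = 0.110). The 5 genes Cxcl12, Ephb4, Gja4, Selp and Vegfc, stand both in this list and in an arterial or venous one.

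Capillary and pan-endothelial genes, the nearest relatives of these markers, were called lower more widely as deposited, where 34.0% of all tested genes were. On the median-of-ratios scale 0.888% of all tested genes were called lower, and 1 of the 9 tested markers. Of 14 capillary genes 12 fell as deposited, with a median of -1.75, and 0 on the median-of-ratios scale (limma, 11 at an unadjusted p under 0.05), with a median of -1.11. Of 12 pan-endothelial genes 10 fell, with a median of -1.73, and 2, Cdh5 and Erg, on the median-of-ratios scale, with a median of -1.09. The 6 arterial and venous markers had a median of -1.02 and the 3 tested lymphatic markers -1.19 as deposited, or -0.39 and -0.62 on the median-of-ratios scale. Whether the markers differ from the capillary genes was not tested. Kdr and Ptprb are in both the capillary and the pan-endothelial list.

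**Figure D4:**
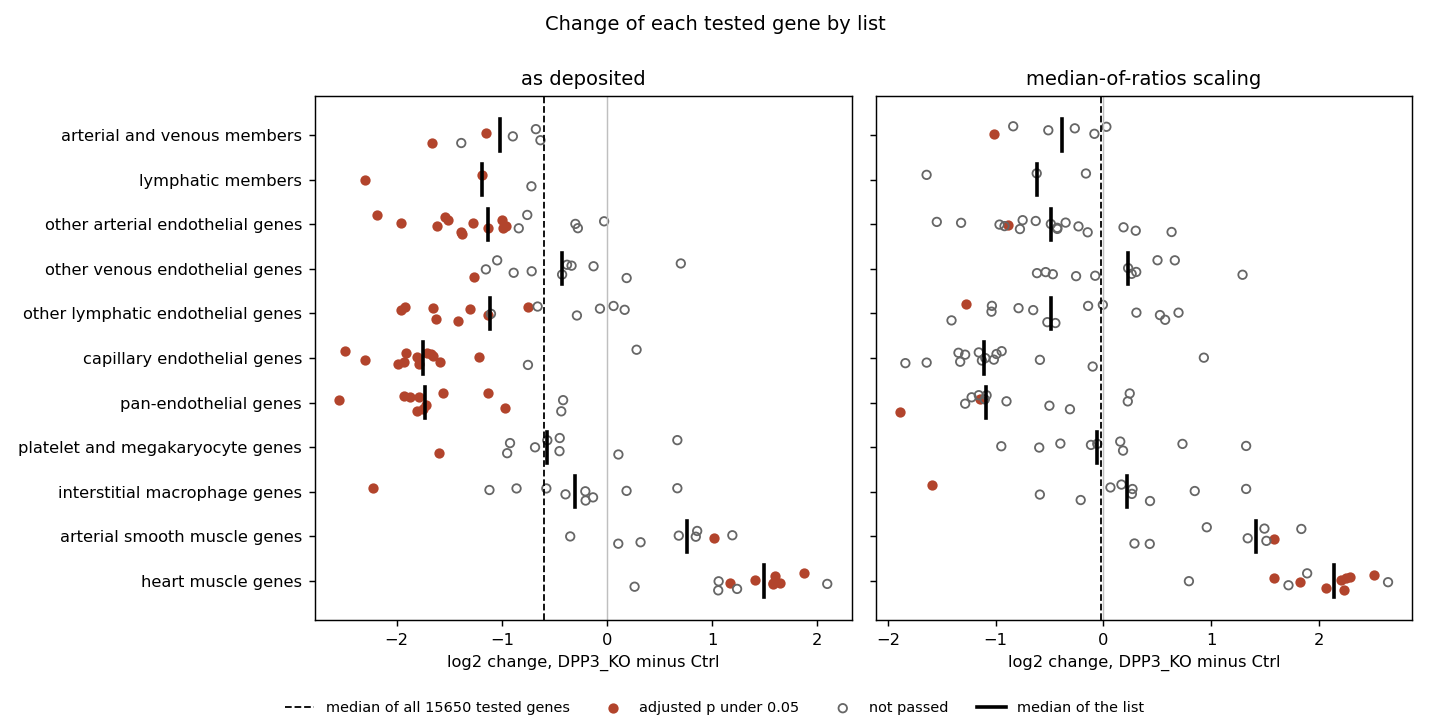
Log2 change of every tested gene in each list, DPP3_KO minus Ctrl, as deposited on the left and on the median-of-ratios scale on the right. Filled points passed an adjusted p of 0.05, the solid bar is the list's median, and the dashed line is the median of all tested genes at -0.60 and -0.02; capillary and pan-endothelial genes lie farthest to the left and heart muscle genes farthest to the right.

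Markers of other cells that make some of the 10 genes moved in several ways. The share called lower over all tested genes was 34.0% as deposited and 0.888% on the median-of-ratios scale. Of 9 platelet and megakaryocyte genes tested 1, Ppbp, fell as deposited, and the summed level was 146 to 518 TPM in DPP3_KO and 239 to 393 TPM in Ctrl, with none at 0 throughout. Their part in the levels of Vwf and Mmrn1 was not tested. Of 10 genes of Lyve1-positive interstitial macrophages 1, Mrc1, fell as deposited and on the median-of-ratios scale, and the sum was 5067 to 8102 TPM in DPP3_KO and 4677 to 6687 TPM in Ctrl, most of it Cbr2, which club cells also make. Mrc1, the mannose receptor gene, is not confined to such macrophages. It had 9.34, 9.86 and 9.08 TPM in DPP3_KO lungs, against 50.3, 47.0 and 45.5 TPM in Ctrl lungs, without overlap. Its log2 change was -2.22 as deposited (limma adjusted p = 0.00449) and -1.59 on the median-of-ratios scale (adjusted p = 0.0100), beside -2.30 and -1.64 for Lyve1. Mrc1 was the lowest of the 10 listed genes on both scales. Their median was -0.30 as deposited and 0.22 on the median-of-ratios scale. The highest, Pf4, was at 0.67 and 1.33, did not pass on either scale, and stands in the platelet list as well. Folr2 and Timd4, surface markers of such macrophages, had 1.61, 8.36 and 2.04 TPM and 1.08, 2.44 and 1.21 TPM in DPP3_KO lungs, against 10.5, 5.82 and 8.72 TPM and 1.75, 0.520 and 4.81 TPM in Ctrl lungs. Folr2 and Timd4 did not pass, and the part of macrophage RNA in the Lyve1 level was not tested. Arterial smooth muscle genes gave 1 higher of 8, Lmod1, on both scales, where 1.38% and 1.94% of all tested genes were called higher. These 8 genes mark smooth muscle in general and are not confined to arteries. Their median log2 change was 0.76 as deposited and 1.42 on the median-of-ratios scale, and 2 and 5 of the 8 had an unadjusted p under 0.05 (limma). Their sums were 427 to 930 TPM in DPP3_KO and 171 to 597 TPM in Ctrl. Mesothelial genes gave 0 of 8 in either direction (limma, with 0 at an unadjusted p under 0.05 as deposited and 1 on the median-of-ratios scale), with sums of 373 to 480 TPM in DPP3_KO and 293 to 715 TPM in Ctrl. Of 6 neural and Schwann cell genes tested 1 fell, Stmn2, with sums of 19.6 to 35.3 TPM in DPP3_KO and 36.0 to 57.2 TPM in Ctrl.

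The genes most like each marker across the 6 libraries were found by the root-mean-square difference of centred log2 profiles on the median-of-ratios scale, among 10544 named genes that averaged 5 TPM or more. Efnb2 lay nearest to St6galnac4 (0.06) and to Notch4 (0.08), which had 30.4, 28.5 and 19.8 TPM in DPP3_KO lungs and 96.7, 82.8 and 66.1 TPM in Ctrl lungs. Ackr3 lay nearest to Pdlim1 (0.07) and Abcb1a (0.09), and Bmx to Lnpep (0.08) and Gas7 (0.10). Gja5 lay nearest to the matrix gene Prelp (0.10) and to Serpinh1 (0.12), the gene of a collagen chaperone, which had 164, 49.9 and 60.9 TPM in DPP3_KO lungs and 204, 241 and 74.8 TPM in Ctrl lungs. Mmrn1 lay nearest to Serinc3 (0.13) and to Tubb1 (0.14), a tubulin gene of platelets, and Reln to St7 (0.14). Lyve1 lay nearest to Sema3c (0.22) and Nsg1 (0.23), Vwf to Mfap2 and Lrmda (0.24 each), and Slc6a2 to Vegfc (0.30) and Pxdc1 (0.34). These distances are on the log2 scale, grow with a gene's own spread, so they are not compared between markers, and describe these 6 libraries only.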

How the data were processed

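Gene expression was measured by RNA sequencing (TruSeq kit, total RNA, per the labels' protocols) in 6 lung libraries. The authors deposited 1 matrix of TPM values for 56980 genes, with gene lengths. Per the submitters' processing notes the tools were HISAT2, StringTie and RSEM and the build GRCm39. Their versions and roles, the annotation, the strandedness and how human tumour reads were handled: not given in the sources used here. Groups and replicate numbers came from the sample titles; the third Ctrl title carries another cell line number, read as a slip. Each TPM column has the same sum, so no depth, interval or floor for counts is given.

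Values were changed to log2(TPM + 1), which understates changes of low genes, and 15650 genes averaging 1 TPM or more were tested for DPP3_KO minus Ctrl with limma 3.58.1 in R 4.3.3 (intensity trend, two-sided, Benjamini-Hochberg over all tested genes, threshold 0.05). Exact permutation of 3 against 3 libraries has a smallest two-sided p of 0.1 and was not used. Tested on simulated data, the fit recovered most of the larger changes and none of the smallest, so a gene that did not pass may still differ. Median-of-ratios factors used genes above 0 in every library; pan-endothelial scaling divided each library by its geometric mean of 12 genes. The members and lists were chosen with earlier results of these data known. Besides the 10 genes, the text names the 3 genes with the smallest p of each list, the 2 nearest profiles of each tested gene, and further list genes chosen after their values were seen. Some genes under this rule are not reported here. Same-numbered replicates deviated together in no regular way, so no pairing was used.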

Additional observations from a re-analysis of the deposited data

How the results depend on the processing

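The calls depend on how the libraries are scaled and on the Ctrl libraries. Of the 9 tested genes, 4 were lower as deposited, 1 after median-of-ratios scaling, after quantile normalization and with TPM rescaled without Scgb1a1, and 0 with pan-endothelial scaling and with the replicate block and median-of-ratios scaling together (limma). Over all genes, 5321 were lower and 216 higher as deposited. The counts were 139 lower after median-of-ratios scaling, 140 lower and 327 higher after quantile normalization, 85 lower and 4224 higher with pan-endothelial scaling, 353 lower and 129 higher without Scgb1a1, 18 lower and 63 higher with the replicate block and median-of-ratios scaling, and 3093 lower with no filter. Leaving out 1 library at a time gave 0 to 5 members lower, 18 to 4993 genes lower and 1 to 146 higher. After median-of-ratios scaling it gave 0 to 1 members, with 15, 55 and 25 genes lower and 17, 41 and 47 higher without Ctrl replicates 1 to 3, and 167, 6 and 15 lower and 174, 18 and 48 higher without DPP3_KO replicates 1 to 3. The causes were not tested.

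With pan-endothelial scaling the log2 changes turned positive for Ackr3 (0.31), Bmx (0.70), Gja5 (0.55), Mmrn1 (0.12), Reln (0.54) and Vwf (0.89). The median over all tested genes was 0.73 with that scaling. Vwf was at 0.028 after median-of-ratios scaling, with or without the block. With that scaling, leaving out Ctrl replicate 1 put Vwf at 0.11, Ctrl replicate 3 put Vwf, Bmx and Reln at 0.14, 0.19 and 0.13, DPP3_KO replicate 2 put Vwf, Gja5 and Reln at 0.55, 0.11 and 0.11, and DPP3_KO replicate 3 put Bmx at 0.074. Pseudocounts of 0.1 and 5, a mean of at least 5 TPM, no trend and robust estimation changed no call among the 9.

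With the replicate number as a block, 5 members were lower, Reln being added (limma adjusted p = 0.0464). Over all 15650 tested genes, 4734 were lower and 212 higher in that fit. Deviations of same-numbered libraries correlated at 0.271, -0.206 and 0.147 across genes for numbers 1 to 3, so the numbers were not taken as pairs. The unknown depth limits what can be said of Prox1, Slc6a2 and other genes of a few TPM.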
